A study of Homo sapiens with 5 samples.

Results

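The subunit genes of Polycomb repressive complex 2 (PRC2) were examined for binding of the histone demethylase PHF8 in melanoma cells. The set was a list of 10 genes fixed by name, EZH1, EZH2, EED, SUZ12, RBBP4, JARID2, MTF2, PHF1, PHF19 and AEBP2, out of 19561 protein-coding genes and 64439 annotated genes in all. Their peaks were those overlapping a window reaching 1 kb to each side of the start site (TSS) of any annotated transcript of the gene. By this rule the members held 21 of 21506 peaks in replicate A, 22 of 20882 in B1 and 21 of 20120 in B2.

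PRC2 is the enzyme complex that methylates histone H3 at the residue H3K27, a mark of silenced genes. Its core consists of a catalytic subunit, either EZH2 or its paralog EZH1, with EED, which binds the methylated mark and stimulates the enzyme, SUZ12, which holds the assembly together, and the histone chaperone RBBP4. Accessory subunits guide the core to chromatin and define alternative forms of the complex, one built on a Polycomb-like protein (MTF2, PHF1 or PHF19) and another on JARID2 and AEBP2. In melanoma, EZH2 is known for activating mutations in a subset of tumors. PHF8 acts on other histone residues: it is a Jumonji C demethylase that removes methyl groups linked to silencing, and its PHD finger binds the trimethylated lysine of histone H3 found at active promoters. Binding of PHF8 to a promoter does not measure how much of the gene product is made.

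The established melanoma line SKMEL-147, of human origin, was crosslinked and sonicated, and chromatin was immunoprecipitated with an anti-PHF8 antibody and sequenced (ChIP-seq). There were 3 ChIP replicates, named A, B1 and B2, alongside 2 input chromatin libraries named A and B. With fewer inputs than ChIP replicates, at least 2 replicates shared an input, so the local backgrounds given below are not all independent. The study asked which genes PHF8 binds, and the series text mentions a PHF8 loss-of-function model made in this line by sgRNA. The labels give the ChIP samples no treatment or genotype. The names of the deposited peak lists carry the abbreviation scr, which the labels do not explain, so the cells cannot be taken as unmodified. There was 1 group and no comparison between conditions. Whether the replicates came from separate cultures is not given in the labels, B1 and B2 share a letter, and the spread between replicates may therefore be technical.

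Each peak carries a fold enrichment, the ratio of ChIP signal to local background at its highest point (the summit). The scale of this ratio differed between the lists: the median strongest promoter peak of a protein-coding target had a fold enrichment of 33.4, 19.3 and 18.3 in A, B1 and B2. Members were therefore ranked within each replicate, as the percentile of their strongest promoter peak among the 11819 protein-coding genes with a promoter peak in all 3 replicates (targets), with 0 the lowest and 100 the highest. Read totals were not used, so library depth is unknown. The ChIP fragments behind each summit could be recovered from the fold enrichment and the p-value, and the median over all peaks was 54, 39 and 40 in A, B1 and B2. The weakest listed summits held 8, 8 and 10 fragments, so weaker binding was not detectable at this depth.

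PHF8 peaks lay at the promoters of all 10 PRC2 genes in all 3 replicates. The same held for 60.4% of protein-coding genes, so binding as such is common and sets the background for this count. The 64 member peaks merged into 19 separate regions, 17 found in every replicate and 2 in 2 replicates. The weakest member peak had a fold enrichment of 4.66, 3.11 and 4.37 in A, B1 and B2, and the strongest 56.2, 27.02 and 24.0. Inside the member genes, 0 peaks lay away from the TSS windows. In 6 members, EZH2, SUZ12, RBBP4, JARID2, PHF1 and PHF19, 2 or more separate regions were shared by all 3 replicates, against 29.9% of targets. Regions were counted over the windows of all annotated start sites, and the part of their number in this count was not tested. In JARID2 and PHF19 the further shared regions lie near start sites of other transcripts. EZH1, EED, MTF2 and AEBP2 had a single shared region each.

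**Figure D1:**
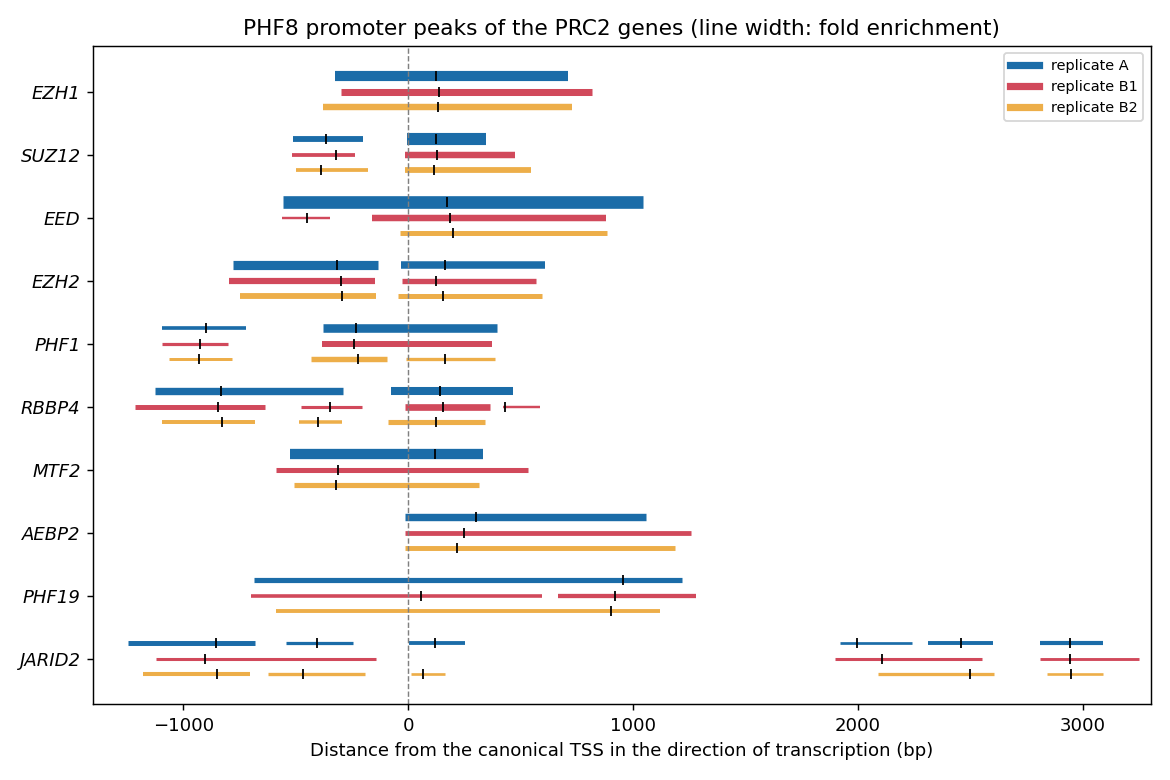
PHF8 peaks of the 10 PRC2 genes in replicates A, B1 and B2, drawn by distance in bp from the canonical TSS in the direction of transcription. Bars are peaks, with a width that grows with fold enrichment, and marks are summits. EZH2, SUZ12 and RBBP4 carry a peak over the TSS and further signal upstream, with a gap between them. The AEBP2 peak starts at the TSS, and the PHF19 regions about 8 kb downstream lie outside the map.

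The arrangement around the TSS differed between members. At EZH2, SUZ12 and RBBP4, regions shared by all replicates flanked a stretch without a peak upstream of the start site. The downstream region covered the canonical TSS, and the gap began 48, 15 and 89 bp upstream of that TSS. At JARID2 a similar gap was seen in A and B2, whereas B1 had no peak on its downstream side. The JARID2 gap ran over the canonical TSS, since the downstream peak began at +2 bp in A and +11 bp in B2. The stretch printed for JARID2 stops at the base before that TSS. The gaps are shown here because they lie where the sites of the general transcription machinery and of promoter-binding factors are usually found. Capitals mark the letters CCAAT or their reverse ATTGG, the box recognised by the factor NF-Y, and each sequence is printed from 5′ to 3′ in the direction of transcription of the gene. They were read from GRCh37, the same build as hg19, at chr7:148581431-148581518 (minus strand) for EZH2, chr17:30263847-30264011 (plus) for SUZ12, chr1:33116603-33116720 (plus) for RBBP4 and chr6:15246159-15246299 (plus) for JARID2. None of these stretches overlaps an annotated exon.
EZH2: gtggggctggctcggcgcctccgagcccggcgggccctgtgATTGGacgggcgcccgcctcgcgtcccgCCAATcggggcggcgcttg
SUZ12: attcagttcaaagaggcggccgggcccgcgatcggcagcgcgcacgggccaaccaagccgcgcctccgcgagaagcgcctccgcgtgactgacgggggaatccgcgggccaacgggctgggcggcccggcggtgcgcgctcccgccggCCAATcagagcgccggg
RBBP4: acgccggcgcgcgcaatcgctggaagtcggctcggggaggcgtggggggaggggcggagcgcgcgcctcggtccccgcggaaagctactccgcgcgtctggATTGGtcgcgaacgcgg
JARID2: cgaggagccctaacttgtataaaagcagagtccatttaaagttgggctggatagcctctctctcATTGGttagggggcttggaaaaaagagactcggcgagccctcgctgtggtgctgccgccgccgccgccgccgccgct

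Each of the 4 gaps held the box, once in SUZ12, RBBP4 and JARID2 and in both orientations in EZH2. Among all targets, 1597 gaps between neighbouring regions shared by all replicates were counted upstream of the canonical TSS, with a median length of 113 bp. Only short gaps close to that TSS were counted, and the downstream region did not have to cover it. PHF1 also had a stretch between shared regions upstream of its canonical TSS, but it lay farther out and was neither counted nor printed. Of the 1597 gaps, 39.1% (625) held CCAAT or ATTGG. JARID2 is not among these gaps, since its downstream region was not shared by B1. The box in the gaps was noticed after the values had been seen and is given as a description. The letters of SP1, GGGGCGGGG or the reverse, were in 24.8% of the gaps and in 0 of the 3 member gaps counted. The printed stretch was 88 bp long with a GC share of 79.5% in EZH2, 165 bp with 75.8% in SUZ12 and 118 bp with 75.4% in RBBP4. In JARID2, where it stops short of the end of the gap, it was 141 bp with 58.9%.

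In EZH1 and MTF2 a single peak spanned the TSS, and the nearest upstream 120 bp free of annotated exons are shown for contrast with the gaps. Capitals mark E2F letters (GCGGCAAA, the reverse of TTTGCCGC) and SP1 letters (GGGGCGGGG). The coordinates on GRCh37 are chr17:40897068-40897187 (minus strand) for EZH1 and chr1:93544672-93544791 (plus) for MTF2.
EZH1: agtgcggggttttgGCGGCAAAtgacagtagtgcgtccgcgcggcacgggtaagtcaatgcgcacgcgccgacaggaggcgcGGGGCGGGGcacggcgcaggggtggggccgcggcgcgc
MTF2: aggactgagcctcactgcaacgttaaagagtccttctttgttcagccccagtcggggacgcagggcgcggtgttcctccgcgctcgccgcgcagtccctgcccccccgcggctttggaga

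EZH1 held 1 E2F and 1 SP1 match, and MTF2 held no searched letters. For the comparison with other genes the window began at the canonical TSS, so it differs by some bases from the stretches printed, which avoid exons. In the 120 bp upstream of the canonical TSS of 11795 targets, E2F letters were found in 2.32%, SP1 letters in 23.7%, NRF1 letters in 2.66% and CCAAT in 25.1%. Of the 10 members, 5 held CCAAT there (EED, EZH2, JARID2, RBBP4 and SUZ12), and EZH1 alone held E2F and NRF1 letters in that window. The boxes printed in the gaps of EZH2, JARID2, RBBP4 and SUZ12 lie in this window, so the CCAAT count is not a separate observation for these genes.

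Among the core genes, both catalytic subunits had peaks above the median of targets in every replicate, with little spread in rank. EZH1 (ENSG00000108799, chr17, minus strand, canonical TSS at 40897058) had 1 region at chr17:40896243-40897437. Its fold enrichment was 43.2, 27.02 and 24.0 in A, B1 and B2, at the 74.0th, 79.2nd and 73.2nd percentile of targets. This gave EZH1 the highest mean percentile of the 10 genes, 75.5 ± 3.26 (SD, n = 3). The summit, in intronic sequence at +123 to +138 bp, held 129 fragments in A with a 95% Poisson interval of 108 to 153. It held 95 in B1 (76.9 to 116) and 87 in B2 (69.7 to 107).

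EZH2 (ENSG00000106462, chr7, minus strand, canonical TSS at 148581383) had a pair of regions, at chr7:148580776-148581430 and chr7:148581519-148582181. The upstream peak was the stronger in every replicate. Its fold enrichment was 38.2, 22.8 and 21.0 in A, B1 and B2, with summits at -315, -298 and -296 bp. The downstream peak, in annotated UTR sequence, had 29.6, 18.4 and 16.4 with summits at +164, +123 and +154 bp. EZH2 had the smallest spread of all members, with a mean percentile of 62.8 ± 1.37 (SD, n = 3). EZH1 ranked above EZH2 in all 3 replicates, by 12.6 ± 1.90 percentile points (SD, n = 3). The size of this gap depended on the measure. EZH2 was near the middle of targets by fragments (51.1), by q-value (55.5) and by the peak nearest to a TSS (49.7), where EZH1 stayed at 78.8, 77.8 and 78.8, so that the gap was 27.7 ± 2.08, 22.2 ± 1.91 and 29.1 ± 0.991.

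SUZ12 (ENSG00000178691, chr17, plus strand, TSS at 30264026) had its strongest peak downstream of the start site, in annotated UTR sequence, at +116 to +127 bp (chr17:30264012-30264571). The fold enrichment was 53.4, 24.2 and 20.7 in A, B1 and B2. These correspond to the 90.8th, 69.7th and 60.2nd percentile, a mean of 73.6 ± 15.6 (SD, n = 3), with A the highest. The upstream peak (chr17:30263510-30263846) was weaker in every replicate, with a fold enrichment of 21.0, 10.2 and 10.2. EZH2 and SUZ12 thus shared the layout of a pair of peaks around a gap but differed in which peak was the stronger.

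EED (ENSG00000074266, chr11, plus strand, canonical TSS at 85955795) had the strongest member peak in A and varied most between replicates. The fold enrichment was 56.2, 24.3 and 16.4 in A, B1 and B2, at the 93.7th, 70.1st and 41.3rd percentile (mean 68.4 ± 26.3, SD, n = 3). The fragment count at the summit was among the highest in every replicate, with 168 (95% Poisson interval 144 to 195), 106 (86.8 to 128) and 88 (70.6 to 108). The local background was higher where the fold enrichment was lower: it was 1.28 times the genome-wide background in A, 1.76 times in B1 and 2.17 times in B2, and its part in the difference was not tested. Ranked by fragments instead, EED reached the 95.3rd, 89.7th and 77.9th percentile, with a mean of 87.6 ± 8.92 (SD, n = 3). The region, chr11:85955233-85956838, also met TSSs of an unnamed gene, ENSG00000288809, so the signal cannot be assigned to EED alone.

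RBBP4 (ENSG00000162521, chr1, plus strand, canonical TSS at 33116809) had its strongest peak at +123 to +157 bp, within chr1:33116721-33117393. The fold enrichment was 32.3, 25.2 and 17.1 in A, B1 and B2. B1 ranked highest, at the 73.0th percentile against 47.6 in A and 44.8 in B2, and the mean was 55.2 ± 15.6 (SD, n = 3). An upstream region, chr1:33115593-33116602, had its strongest summit at -829 to -846 bp, with a fold enrichment of 28.8, 16.4 and 11.2. All RBBP4 peaks also met TSS windows of ZBTB8OS, a component of the tRNA ligase complex.

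The accessory genes covered a wider range. PHF1 (ENSG00000112511, chr6, plus strand, canonical TSS at 33378791), a Polycomb-like protein whose Tudor domain binds histone H3, lay near the middle of the targets. The fold enrichment was 35.1, 21.6 and 18.8 in A, B1 and B2, and the mean percentile was 55.5 ± 3.73 (SD, n = 3), above 50 in all replicates. The summit lay at -231, -242 and -221 bp from the canonical TSS but within 14 to 35 bp of the nearest annotated TSS (region chr6:33378361-33379185). A second region at chr6:33377695-33378072 had a fold enrichment of 9.57, 7.14 and 6.06.

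MTF2 (ENSG00000143033, chr1, plus strand, canonical TSS at 93544840), a Polycomb-like protein that binds unmethylated CpG-rich DNA, differed between replicates in both height and summit position. The fold enrichment was 44.02, 16.8 and 17.3 in A, B1 and B2, at the 75.7th, 40.2nd and 45.8th percentile (mean 53.9 ± 19.1, SD, n = 3). The summit lay at +120 bp in A and at -312 and -323 bp in B1 and B2, all within the single region chr1:93544254-93545373. The local background was at the genome-wide level in A and 1.76 and 1.74 times that level in B1 and B2, and its part in the difference was not tested. Ranked by fragments (112, 73 and 78), MTF2 varied less, with a mean percentile of 64.04 ± 3.47 (SD, n = 3).

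AEBP2 (ENSG00000139154, chr12, plus strand, canonical TSS at 19592426), a zinc-finger subunit that stimulates the enzyme on nucleosomes, had a peak with no upstream part. It started at -12 bp in A, -13 bp in B1 and -15 bp in B2 and ran for over 1 kb into the gene (chr12:19592411-19593682), with the summit in coding sequence at +215 to +303 bp. The fold enrichment was 29.0, 15.5 and 16.1 in A, B1 and B2, below the median of targets in each. The mean percentile was 38.3 ± 3.15 (SD, n = 3).

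PHF19 (ENSG00000119403, chr9, minus strand, canonical TSS at 123639466), the remaining Polycomb-like gene, had a low and broad peak at chr9:123638187-123640163. Its fold enrichment was 17.5, 12.9 and 10.8 in A, B1 and B2. The summit lay at +953, +919 and +900 bp from the canonical TSS, the farthest downstream of the strongest summits by that distance. From the nearest annotated TSS it lay at +198, +164 and +145 bp. The mean percentile was 18.4 ± 4.77 (SD, n = 3). The local background was 2.14, 1.42 and 1.74 times the genome-wide level, and the percentile by fragments (75, 47 and 48) was 31.1 ± 1.08. A further region shared by all replicates, chr9:123630725-123631117, lies near start sites of other transcripts and had a fold enrichment of 5.27, 5.95 and 5.80.

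JARID2 (ENSG00000008083, chr6, plus strand, TSS at 15246300), the Jumonji family member without demethylase activity that recruits PRC2, had the lowest mean percentile, 12.8 ± 8.72 (SD, n = 3). The fold enrichment of its strongest peak was 16.4, 6.47 and 11.7 in A, B1 and B2, with 41 (95% Poisson interval 29.4 to 55.6), 33 (22.7 to 46.3) and 35 (24.4 to 48.7) fragments. B1 was the lowest, at the 4.14th percentile, and its local background was 2.20 times the genome-wide level, a value whose part in the rank was not tested. That peak lay upstream, at -853, -902 and -848 bp (region chr6:15245053-15246158). The region is shared with JARID2-DT, a divergent transcript, and further shared regions in intronic sequence lay at chr6:15248198-15248904 and chr6:15249111-15249548. JARID2-AS1, an antisense gene, also met promoter peaks of JARID2.

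**Figure D2:**
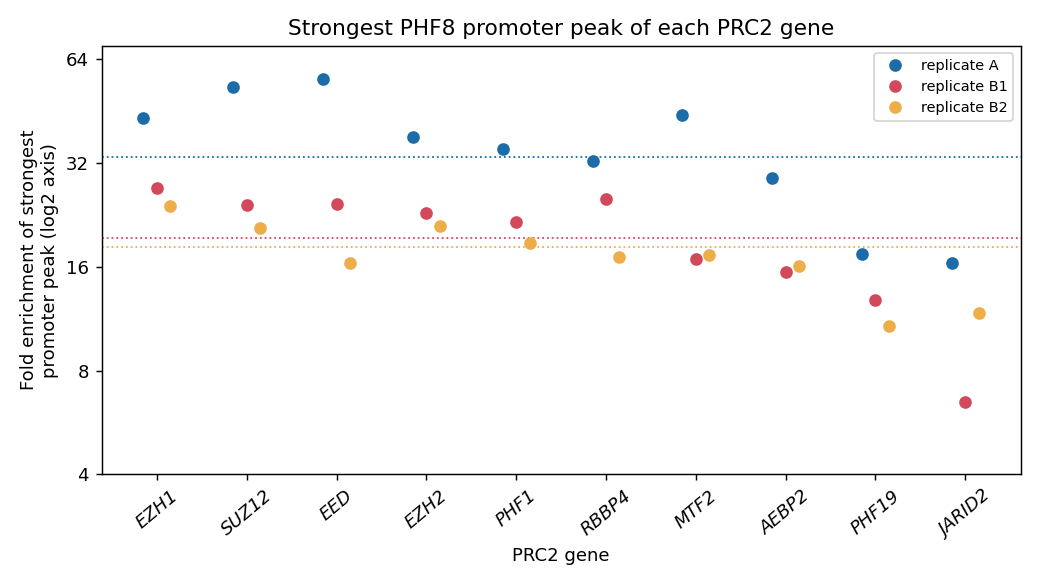
Fold enrichment (log2 axis) of the strongest promoter peak of each PRC2 gene, with 1 point for each replicate and a dotted line in the same colour at the median of that replicate's 11819 protein-coding targets. Genes are in order of mean percentile. EZH1 lies above the line in every replicate and JARID2 below it, while EED falls from 56.2 in A, above its line, to 16.4 in B2, below it.

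As a set, the members lay around the middle of the targets. Their median percentile was 58.5, 62.0 and 45.3 in A, B1 and B2, with a mean of 55.2 ± 8.81 (SD, n = 3) around the midpoint of 50. The median fold enrichment of members against targets was 36.6 against 33.4 in A, 22.2 against 19.3 in B1 and 17.2 against 18.3 in B2. Above the median of targets in all 3 replicates were 4 members (EZH2, EZH1, SUZ12 and PHF1), against 38.6% of targets. Below it in all 3 replicates were 3 members (JARID2, AEBP2 and PHF19), against 39.0% of targets. The other 3, EED, RBBP4 and MTF2, changed sides between replicates. A peak with a fold enrichment above 10 in all replicates was present in 9 members, JARID2 being the exception. It was present in 9720 of the 11819 targets, which is 49.7% of all protein-coding genes, so most targets had one.

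On average, core subunit genes had higher fold enrichment than accessory ones in each replicate, although single genes overlapped. The mean log2 fold enrichment of the 5 core and 5 accessory genes was 5.45 against 4.72 in A, 4.63 against 3.77 in B1, and 4.30 against 3.87 in B2. Core minus accessory came to 0.73, 0.86 and 0.43 on the log2 scale, a mean of 0.67 ± 0.22 (SD, n = 3). With the signs of 3 replicates flipped in every way, an exact two-sided permutation test cannot go below p = 0.25, which is the value these differences give. Much of the gap came from the lowest pair: without JARID2 and PHF19, left out after their values were seen, it was 0.30, 0.47 and 0.18, a mean of 0.32 ± 0.15 (SD, n = 3). Gene by gene the order did not hold, since MTF2 in A (44.02) exceeded EZH1 (43.2), EZH2 (38.2) and RBBP4 (32.3), and PHF1 in B2 (18.8) exceeded EED (16.4) and RBBP4 (17.1).

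The order of the mean percentiles was EZH1, SUZ12, EED, EZH2, PHF1, RBBP4, MTF2, AEBP2, PHF19 and JARID2. Of the 9 pairs of neighbours in this order, 2 differed in the same direction in all 3 replicates and by more than the SD of the difference: EZH2 over PHF1 by 7.38 ± 2.39 percentile points and AEBP2 over PHF19 by 19.8 ± 7.50. By fragments the order of the former pair turned, with 51.1 for EZH2 and 60.4 for PHF1. The other neighbours did not differ beyond their spread, including EZH1 and SUZ12 at the top (1.88 ± 16.3) and PHF19 and JARID2 at the bottom (5.66 ± 12.2). Of all 45 pairs, 29 kept the same order in all 3 replicates. JARID2 and PHF19 each ranked below every other member but one another in every replicate, in 16 of 16 pairs.

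JARID2 and PHF19 had low peaks that together covered a large length. Their promoter peaks covered 1970 ± 124 bp and 2320 ± 273 bp (SD, n = 3), whereas the median target was covered over 1021 bp in A, 966 bp in B1 and 930 bp in B2. Ranked by covered length, PHF19 was at the 97.6th percentile (SD 1.03) and JARID2 at the 95.02nd (SD 1.16), the highest of the 10 genes. At PHF19 most of this length was 1 broad domain, whose strongest peak was 1904, 612 and 1708 bp wide in A, B1 and B2. At JARID2 it was a sum over 6, 3 and 5 separate peaks, and the strongest of them was 568, 981 and 479 bp wide, against 824, 720 and 674 bp for the median target. SUZ12 went the other way: with 772 ± 106 bp it ranked 29.6 ± 14.4 by length against 73.6 by fold enrichment. The covered length was 1259 ± 21.7 bp at EZH2, 1087 ± 40.9 bp at EZH1, 1261 ± 341 bp at EED and 1269 ± 202 bp at RBBP4. It was 1181 ± 102 bp at AEBP2, 1072 ± 69.7 bp at PHF1 and 935 ± 162 bp at MTF2. Covered length adds up over all windows of a gene, so a gene with several start sites can reach a larger sum. JARID2 had 3 annotated start sites and PHF19 had 13, against 19 in EZH2, and their part in the covered length was not tested.

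**Figure D3:**
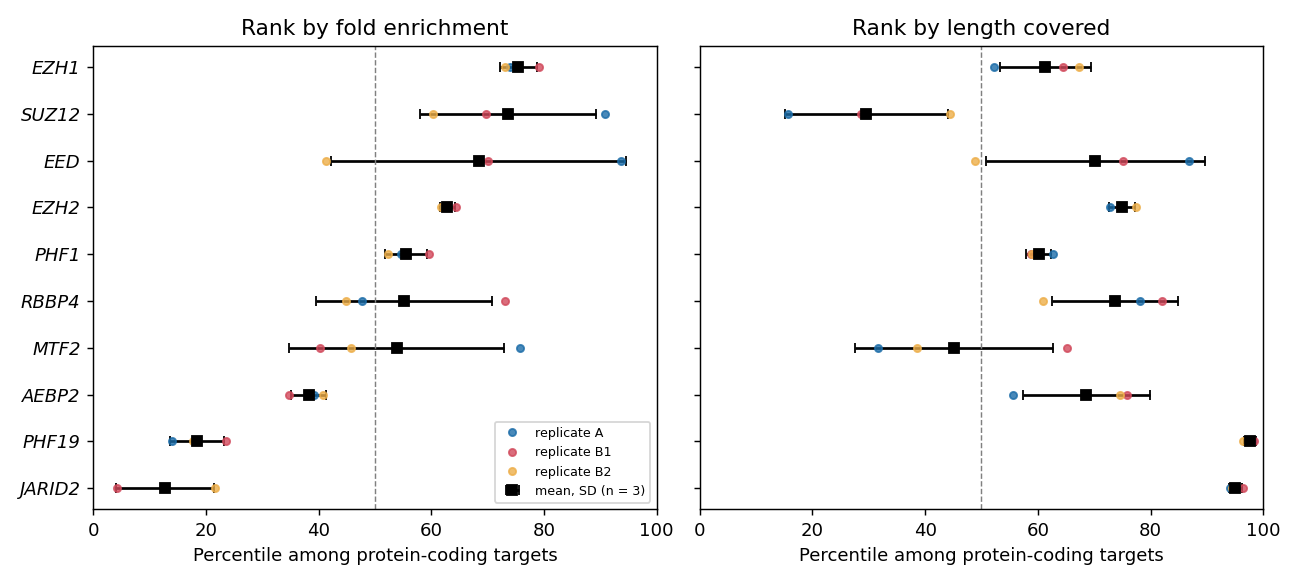
Percentile of each PRC2 gene among protein-coding targets by fold enrichment of its strongest promoter peak (left) and by total length of its promoter peaks (right). Coloured points are replicates, squares with bars are the mean and SD (n = 3), and the dashed line marks 50. PHF19 and JARID2 sit at 18.4 and 12.8 by fold enrichment and at 97.6 and 95.02 by length.

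The annotated start site that carried PHF8 was not always the 5′ end of the gene record. EED, AEBP2 and PHF19 had no peak within 1 kb of that 5′ end in all 3 replicates, and the same was seen in 10.5% of targets. Their canonical TSSs, within 1 kb of which the strongest peaks lay, are 43541, 35447 and 17708 bp downstream of the gene record's 5′ end. In every member some annotated start sites were not bound. Peaks in all replicates met 8 of 16 TSSs in EZH1, 12 of 19 in EZH2, 7 of 12 in EED, 2 of 4 in SUZ12 and 13 of 18 in RBBP4. Among accessory genes they met 2 of 3 in JARID2, 6 of 12 in MTF2, 7 of 11 in PHF1, 9 of 13 in PHF19 and 4 of 9 in AEBP2. Of the 30 strongest summits (10 genes in 3 replicates), 14 lay in untranslated exon sequence, 8 upstream of the gene, 5 in an intron and 3 in coding sequence.

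In sequence, the members' summits resembled those of other targets, with some exceptions. Within 250 bp of the strongest summit, the median GC share of members was 73.0%, 73.5% and 73.0% in A, B1 and B2, against 68.5% for 11795 targets with a canonical transcript. The median ratio of observed to expected CpG was 0.873, 0.884 and 0.882, against 0.837, 0.838 and 0.836. A GC share of at least 50% with a CpG ratio of at least 0.6, the usual criteria for a CpG island, was met by 93.0%, 93.3% and 93.1% of targets and by 8, 9 and 9 members. PHF1 failed it in every replicate, with a CpG ratio of 0.550, 0.569 and 0.550, and PHF19 failed it in A at 0.587. EZH2 had the highest CpG ratio, at 1.11, 1.14 and 1.14. MTF2 had the lowest GC share, at 62.1%, 51.5% and 50.3%, and the lower values belong to the upstream summits of B1 and B2.

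**Figure D4:**
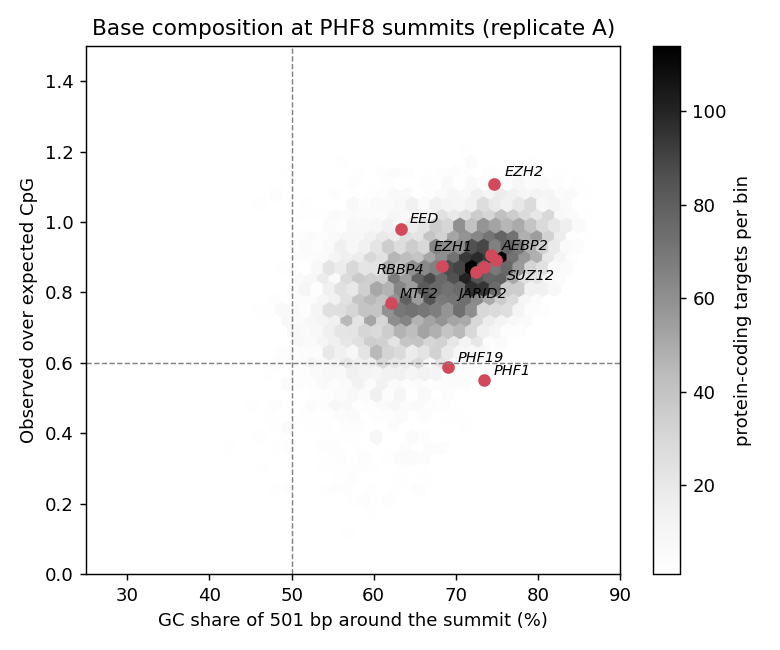
GC share (%) and ratio of observed to expected CpG within 250 bp of the strongest summit in replicate A, with targets as shaded bins and the 10 PRC2 genes as labelled points. Dashed lines mark 50% and 0.6, and PHF1 (0.550) and PHF19 (0.587) fall below the latter.

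The same windows were searched on both strands for letters of 7 promoter-binding factors, none of which contains another: E2F (TTTCGCGC, TTTGGCGC, TTTCCCGC or TTTGCCGC), NRF1 (GCGCATGCG), ETS (CCGGAAGT), YY1 (AAGATGGC), SP1 (GGGGCGGGG), NF-Y (CCAAT) and CRE (TGACGTCA). CCAAT was found in 7 members in each replicate and in 37.1%, 36.9% and 36.8% of targets. Some of the members' windows overlap the gaps printed above, so this count is not independent of them. SP1 letters were in 5, 5 and 6 members and in 33.9%, 33.8% and 33.6% of targets. E2F letters, which mark promoters of cell-cycle genes, were in 4, 2 and 3 members, EED and SUZ12 in all replicates, against 7.30%, 7.40% and 7.44% of targets. NRF1 letters were in EZH1 in each replicate and in 4.03% of targets in A. The letters of ETS (9.39% of targets in A), YY1 (7.003%) and CRE (3.07%) were in 0 members. A match is a string of letters and no evidence that the factor is bound.

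Genes of related complexes were described in the same way, and their counts stand beside the 60.4% of protein-coding genes bound in all 3 replicates. All 19 genes of Polycomb repressive complex 1 (PRC1), which ubiquitinates histone H2A, were bound in all replicates, with a median percentile of 50.4 ± 6.27 (SD, n = 3). YAF2 (mean percentile 83.3) and CBX2 (83.2) were highest and RNF2 (9.99), the main ubiquitin ligase, was lowest. All 10 COMPASS genes, which encode H3K4 methyltransferases and their shared subunits and oppose Polycomb at many promoters, were bound as well, with a median of 49.3 ± 7.96. ASH2L was highest at 91.7 ± 2.01 and SETD1B lowest at 14.6 ± 12.2. Both medians lie within 1 SD over replicates of the PRC2 median of 55.2 ± 8.81. That SD does not cover the choice of genes, and the difference between lists was not tested.

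Of 5 further PRC2 partners and inhibitors, 4 were bound (median 47.8 ± 1.52), beside 60.4% of protein-coding genes. They were LCOR at 95.3, EPOP at 57.7, RBBP7, the paralog of RBBP4, at 38.0, and LCORL at 20.9. EZHIP, an inhibitor of PRC2 normally made in germ cells, had no promoter peak in any replicate. Both H3K27 demethylases, which remove the mark that PRC2 writes, were bound, KDM6A at a mean percentile of 33.4 and KDM6B at 6.02. Among 8 melanocyte lineage genes, used as a check of the cell type, PMEL, MITF and SOX10 were bound, and MLANA, TYR, DCT, TYRP1 and S100B were not, but binding does not measure their expression and so cannot settle the label.

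**Figure D5:**
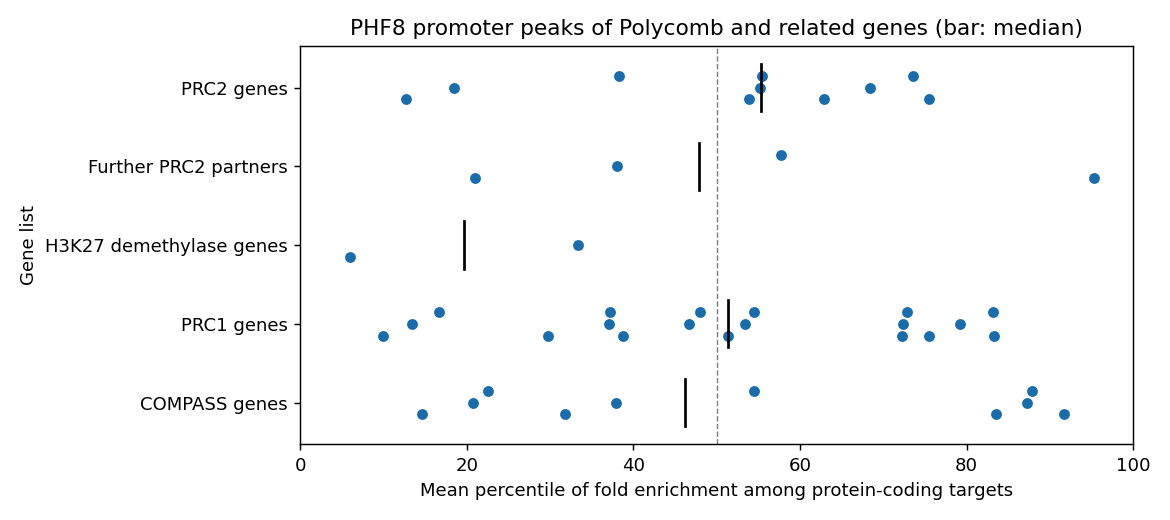
Mean percentile over 3 replicates of the strongest PHF8 promoter peak for the PRC2 genes and the genes of the other lists, with 1 point for each bound gene and a bar at the median of the plotted values. The dashed line marks 50. Each of the larger lists runs from below 20 to above 70, and the H3K27 demethylases lie at 33.4 and 6.02.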

How the data were processed

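The members and the gene lists were chosen with earlier results of these data known. According to its methods and the labels, reads had been aligned by the authors to hg19 (GRCh37) with Bowtie2 defaults, and they called narrow peaks with MACS for each replicate against input, without pooling. The processing notes also name bcl2fastq and Picard. Tool versions and the treatment of duplicate reads are not given in the sources used here. The 2 inputs enter only through the peak values.

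The deposited lists hold, for each peak, a fold enrichment (a linear ratio over local background), the −log10 p-value and −log10 q-value, a score (the whole part of 10 times the deposited −log10 q-value, not used further) and the summit offset. No listed peak fell short of the study's cutoffs (fold enrichment 1.5, q-value 0.05).

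Every transcript's 5′ end in GENCODE release 44 (lifted to GRCh37) was taken as a TSS, and a gene was bound when a peak overlapped 1 kb on either side of one. A target was bound in all 3 replicates. Separate regions were peaks merged over replicates by any overlap. Canonical transcripts were Ensembl's. The percentile is the middle rank of a gene's strongest promoter peak by fold enrichment. Fragments at a summit were recovered as the whole number n for which (n + 1) over (background + 1) gives the fold enrichment and a Poisson law the p-value, within a tolerance of 0.001 for 100% of peaks. The recovery was tested on simulated data, where 100% of 4961 simulated summits were recovered. Genome-wide, the background in A, B1 and B2 was 1.567, 1.932 and 2.044 fragments. Intervals are exact 95% Poisson intervals and cover counting error only.

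The genes named were all members, genes sharing their promoter peaks, and, from each list, 2 to 4 with the highest and lowest mean percentile and every unbound one. Names beyond this (the remaining bound genes of the short lists and of the lineage list) were added after their values were seen. Alternatives were fold enrichment above 4 and above 10, a q-value below 0.001, windows of 500 bp and 2 kb, 1 TSS per gene record or canonical transcript, the summit inside the window, a peak in at least 2 replicates, targets of any biotype, ranking by fragments or −log10 q-value, the peak nearest to a TSS, and leaving out each replicate. Ranking by covered length was added after seeing the data. Python 3.11.15, NumPy 2.4.6, SciPy 1.17.1, pandas 2.3.3 and Matplotlib 3.10.9 were used. A stretch of sequence upstream of 1 member is not reported here.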

Additional observations from a re-analysis of the deposited data

How the results depend on the processing

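The count of 10 bound members was unchanged under the alternatives run, except that a fold enrichment above 10 left 9 (without JARID2) and 1 TSS per gene record left 7 (without EED, AEBP2 and PHF19), where 49.7% and 54.1% of protein-coding genes were bound. The median percentile of members, 55.2, ranged from 48.4 (fold enrichment above 10) to 60.6 (without B2) over the alternatives other than covered length, and from 52.2 to 60.6 when 1 replicate was left out. Ranking by the total length of promoter peaks, chosen after seeing the data, moved it to 68.9, and the cause was not tested. The core minus accessory difference of 0.67 on the log2 scale stayed positive, from 0.50 to 0.96, and was 0.32 without JARID2 and PHF19, an alternative chosen after seeing the data. The values in that range are not all alike. The 0.50 came from 9 genes (fold enrichment above 10, without JARID2), and 1 TSS per gene record left 7 genes (0.59). By fragments (0.53) and by q-value (0.85) the logarithm was of those measures, not of fold enrichment. Of 156 values of single members under alternatives, 131 stayed within 1 SD of the value reported and 25 moved. The SD was that of the member's own replicates, so leaving out 1 replicate could hardly move a value. EED at 87.6 by fragments counted as unmoved from 68.4 (SD 26.3). EZH2 at 64.7 among targets of any biotype counted as moved from 62.8 (SD 1.37). The count therefore does not measure how stable the members were. EED depended most on 1 library, with a mean percentile of 55.8 without A and 82.1 without B2. Under alternatives other than covered length, PHF19 ranged from 4.21 to 31.1 and JARID2 from 5.97 to 17.6, while the lowest value of any other member was 25.2 (AEBP2). These extremes belong to different settings. The 25.2 was at a fold enrichment above 10, where PHF19 was at 4.21 and JARID2 had no value. The 31.1 was by fragments, where AEBP2 was at 35.1. With 1 TSS per gene record, PHF19 had no value. With 3 replicates of 1 group, no statement on conditions, and none below p = 0.25 in an exact permutation test over replicates, was possible.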
